A study of Rattus norvegicus with 32 samples.

Results

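The genes described here are Prdm8 and 9 transcription factors of the glutamatergic neurons of the pallium, the dorsal part of the forebrain that forms cortex and hippocampus. They are Bhlhe22, Bhlhe23, Neurod1, Neurod2, Neurod6, Tbr1, Fezf2, Emx1 and Emx2. They were chosen by name, with earlier results of these data known, and all 10 were found among the 28914 gene names counted in each sample. RNA-seq was done on 4 brain regions of adult male Sprague-Dawley rats, the nucleus accumbens (NAc), the dentate gyrus (DG), the Ammon's horn (CA) and the subventricular zone (SVZ). Methamphetamine (METH, 10 mg/kg) or saline (Sal) was injected into the abdomen 4 times, 2 h apart, and the brains were collected 24 h later. Each of the 8 groups has 4 samples, 32 in all, named here by region, treatment and number (DG Sal 3). The NAc and SVZ were punched from frozen slices, and the DG and CA were scooped from the hemisphere after the overlying neocortex was lifted off. The rats carry no transgene. The sequencing runs named in the file headers were not balanced over the groups. The 8 SVZ samples formed a run of their own, so run and SVZ cannot be told apart. The other regions drew on 3 runs unevenly, with 2 CA Sal samples merged from more than 1 run. In the DG, 1 run held 1 Sal and 2 METH samples. The other 3 Sal samples came from a run without DG METH samples, and the other 2 METH samples from a run without DG Sal samples. Run and treatment are thus largely confounded in the DG. In the NAc, 1 run held 2 Sal and 2 METH samples. The other 2 Sal samples came from a run without NAc METH samples, and the other 2 METH samples from a run without NAc Sal samples. Run and treatment are thus partly confounded in the NAc too.

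Prdm8 belongs to the PRDM family and represses transcription. In projection neurons it is known to act in a complex with Bhlhe22, also called Bhlhb5, and the neuronal bHLH factors of the Neurod family drive and maintain the differentiation of glutamatergic neurons by binding short E-box sequences. Tbr1 and Fezf2 specify deep-layer cortical projection neurons, and Emx1 and Emx2 are homeobox genes that pattern the dorsal telencephalon. The genes lie on rn6 at chr14:13054771-13058172 (Prdm8), chr2:102685513-102688624 (Bhlhe22), chr3:176279997-176282211 (Bhlhe23), chr10:86280892-86282693 (Neurod2), chr4:85911861-85915099 (Neurod6), chr3:47677720-47685902 (Tbr1), chr15:12827707-12831496 (Fezf2), chr4:116968000-116985551 (Emx1) and chr1:280633938-280640946 (Emx2), as whole genes of the annotation used for counting. The NAc and the striatal side of the SVZ arise from the subpallium, whose neurons are mostly GABAergic.

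Total counts per sample lay between 11094002 and 21869773. Levels are given in CPM (counts scaled to a common library size) relative to upper-quartile library sizes, in which 1 read was worth 0.0442 to 0.0934 CPM. A few libraries stood apart from their labels in their marker levels, and they were picked after the data were seen. DG Sal 3 had 1669 CPM of striatal medium spiny neuron markers (8 genes summed), beside 222 to 320 CPM in the other DG Sal samples, and only 3.85 CPM of Slc17a7, the vesicular glutamate transporter, beside 1079.6 to 1615 CPM. NAc METH 3 had 152.5 CPM of the striatal markers, beside 1356.5 to 8209.9 CPM in the other 7 NAc samples. SVZ Sal 1, SVZ METH 2 and SVZ METH 4 had 1271 to 2133 CPM of thalamic markers, beside at most 516 CPM in the other SVZ samples. The DG and CA labels were not separated by dentate granule markers, since Prox1 was at 27.1 to 315 CPM in the DG samples and 33.8 to 301 CPM in the CA samples. C1ql2, another granule cell gene, was at 1.18 to 102 CPM in the DG samples and 7.25 to 101 CPM in the CA samples. Fibcd1, a marker of CA1 pyramidal neurons, was at 0 reads in 30 of 32 samples of all regions, so it says nothing on the CA label. Wfs1, another CA pyramidal marker, was at 185 to 328 CPM in the CA samples and 55.3 to 898 CPM in the DG samples. Prox1, C1ql2, Slc17a7, Fibcd1 and Wfs1 were picked from the gene lists after their values were seen. The labels do not tie regions to animals. The dissection takes all 4 regions from each brain, so samples of different regions may share an animal, and they were tested as independent. The p-values measure the spread between these samples, which may be in part technical. In bulk tissue, fewer cells of a type and less RNA per cell cannot be told apart.

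Prdm8 was highest in the DG METH samples, with 64.2, 34.6, 33.8 and 65.3 CPM. The DG Sal samples were at 34.3, 22.7, 0.82 and 12.3 CPM, so the highest saline sample lay above the lowest METH sample by a narrow margin. In the CA, the level was 61.1, 29.3, 48.5 and 21.1 CPM in Sal and 15.6, 37.9, 36.5 and 37.3 CPM in METH, and the groups overlapped. Outside the hippocampus most samples were low and a few were not. In the NAc, Prdm8 was at 0.694, 0.913, 1.91 and 12.1 CPM in Sal and at 10.8, 1.602, 9.46 and 11.8 CPM in METH, so that 1 saline and 3 METH samples formed the upper set. In the SVZ, it was at 1.08, 1.96, 11.8 and 0.781 CPM in Sal and at 19.2, 0.67, 0.398 and 1.30 CPM in METH. SVZ Sal 3 and SVZ METH 1 thus stood alone within their groups. The order of the group means was DG METH (49.5 ± 17.7 CPM, SD, n = 4), CA Sal (40.0 ± 18.1), CA METH (31.8 ± 10.8), DG Sal (17.5 ± 14.3) and NAc METH (8.43 ± 4.65), followed by SVZ METH (5.40 ± 9.22), NAc Sal (3.92 ± 5.51) and SVZ Sal (3.91 ± 5.29). Of the neighbours in this order, the step from CA METH to DG Sal was the one wider than the pooled SD of its pair, and the others were narrower.

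Bhlhe22, the partner of Prdm8, had a similar layout in the DG and CA at higher CPM. It was at 88.1, 58.1, 1.96 and 19.7 CPM in DG Sal and at 185, 134, 68.3 and 159 CPM in DG METH. DG METH 3 lay below DG Sal 1, and the other 3 METH samples lay above every saline sample. In the CA it was at 164, 85.1, 161 and 75.7 CPM in Sal and at 53.8, 151, 105 and 116 CPM in METH, with overlapping groups. The NAc and SVZ samples lay between 0.753 and 24.6 CPM, and the highest were NAc Sal 4 with 24.6, SVZ METH 1 with 20.8 and NAc METH 3 with 10.4 CPM. NAc METH 1 and NAc METH 4, both in the upper set for Prdm8, had only 3.7 and 4.4 CPM of Bhlhe22. The layout in the NAc was thus not that of Prdm8. Bhlhe23, the closest relative of Bhlhe22, was low throughout, with 3 reads or fewer in 7 of 32 samples, and its group means ran from 0.517 CPM in SVZ METH to 2.81 CPM in DG METH. Its highest samples were CA Sal 1 with 5.68 CPM (98 reads) and DG METH 1 with 5.58 CPM (90 reads), while DG Sal 4 had 0 reads. All 7 steps between neighbouring group means of Bhlhe23 were narrower than their pooled SD. On the scale that allows genes to be compared, CPM per kilobase of exon, the DG METH means were 43.8 ± 16.02 for Bhlhe22, 23.9 ± 8.54 for Prdm8 and 1.27 ± 1.01 for Bhlhe23.

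In DG METH and CA Sal, Neurod6 and Neurod2 were the most abundant of the 10 genes per length, with means of 89.8 ± 31.3 and 61.2 ± 14.7 CPM per kilobase in the first and 70.9 ± 35.2 and 51.1 ± 20.8 CPM per kilobase in the other. Neurod6 was at 131, 45.9, 0.0631 and 70.9 CPM in DG Sal, where the value of DG Sal 3 is a single read. In DG METH it was at 119.5, 157, 161 and 262 CPM, and DG METH 1 lay below DG Sal 1. In the CA it was at 241, 100.4, 106 and 105 CPM in Sal and at 139, 110.0, 78.5 and 88.7 CPM in METH. Neurod2 was at 84.4, 70.6, 0 and 44.8 CPM in DG Sal and at 95.9, 128, 79.9 and 136 CPM in DG METH, with 0 reads in DG Sal 3. The METH samples of the CA were close together for this gene, with a mean of 72.6 ± 6.55 CPM, beside 91.8 ± 37.3 CPM in CA Sal. Neurod1, which acts earlier in granule cell differentiation, was at 23.6, 19.9, 0.252 and 66.4 CPM in DG Sal and at 35.5, 28.6, 14.4 and 39.7 CPM in DG METH. DG Sal 4 was therefore the highest of all 32 samples for Neurod1, although only DG Sal 3 was lower among the DG samples for Prdm8 and Bhlhe22. DG Sal 4 also had 1692 reads of Neurod4, another Neurod gene, beside 7 to 23 reads in DG METH. In the NAc and SVZ the 3 genes were low except in single samples, with Neurod2 at 19.4 CPM in NAc Sal 4, 15.97 CPM in NAc METH 1, 13.7 CPM in NAc METH 4 and 26.2 CPM in SVZ METH 1. Neurod1 lies on chromosome 3 (rn6, chr3:66414308-66417741, minus strand) and overlaps another annotated gene on the same strand, so its count is less certain than those of the other 9 genes, which overlap none.

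The Neurod genes differ in the E-boxes before their starts. An E-box is the 6-base sequence CANNTG, which reads alike on both strands and is bound by bHLH factors. The 250 bases before the start of each gene were taken from RefSeq (assembly GRCr8, not the build of the counts), and 7 of the 10 genes were found there by symbol. The promoters of the 3 Neurod genes are shown because these bHLH genes were all called between regions in the METH samples. Capitals mark each CANNTG, and the sequences run 5′ to 3′ on the strand of the gene, which is the minus strand for all 3, at chr3:84770455-84770704, chr10:83824278-83824527 and chr4:86180156-86180405.
Neurod1: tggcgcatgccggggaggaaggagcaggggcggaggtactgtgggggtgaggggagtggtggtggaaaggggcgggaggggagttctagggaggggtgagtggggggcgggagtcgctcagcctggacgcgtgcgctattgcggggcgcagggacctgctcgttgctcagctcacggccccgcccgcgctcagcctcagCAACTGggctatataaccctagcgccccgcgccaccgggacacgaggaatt
Neurod2: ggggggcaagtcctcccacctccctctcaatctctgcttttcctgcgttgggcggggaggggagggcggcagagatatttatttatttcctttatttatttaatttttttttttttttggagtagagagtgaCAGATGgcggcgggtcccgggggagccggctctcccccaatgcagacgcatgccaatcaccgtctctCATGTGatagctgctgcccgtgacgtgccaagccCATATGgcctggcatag
Neurod6: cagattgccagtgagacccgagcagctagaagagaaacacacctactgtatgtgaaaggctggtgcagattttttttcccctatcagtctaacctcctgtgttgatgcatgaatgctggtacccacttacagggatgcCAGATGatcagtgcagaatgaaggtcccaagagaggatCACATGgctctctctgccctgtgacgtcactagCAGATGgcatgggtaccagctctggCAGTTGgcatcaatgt
Neurod1 holds 1 E-box in this window, Neurod2 holds 3 and Neurod6 holds 4. The variant CAGATG, searched on both strands (as CATCTG on the other), which Neurod factors are known to bind, is found once in Neurod2 and 2 times in Neurod6 and not in Neurod1. Of the 33365 promoters of this length, 65.5% hold an E-box of any kind and 13.97% hold this variant. Another variant, CATATG, is found in 3.603% of them and once in Neurod2. The windows of Bhlhe23 and Tbr1 hold 1 CANNTG each, that of Emx1 holds 2, and that of Fezf2 holds 0.

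Tbr1 had the opposite layout in the DG. It was at 113, 151, 4.48 and 85.3 CPM in DG Sal and at 22.3, 65.5, 25.6 and 33.8 CPM in DG METH. With the exception of DG Sal 3, each saline sample lay above each METH sample. The full groups overlapped, DG Sal 3 was set apart after the data were seen, and the share of all genes with such a split was not counted. In the CA it was at 38.5, 72.8, 42.0 and 127 CPM in Sal and at 164, 29.3, 43.6 and 40.7 CPM in METH, so CA METH 1 was the highest of the 32 samples. Tbr1 was also the member with the highest levels in the NAc, at 11.3, 5.41, 9.48 and 49.3 CPM in Sal and at 49.8, 4.39, 19.5 and 43.9 CPM in METH. The same NAc samples, Sal 4, METH 1 and METH 4, had 458 to 663 CPM of Slc17a7, beside 4.95 to 114 CPM in the other 5, and the part of glutamatergic cells in these values was not tested. None of the steps between neighbouring group means of Tbr1 was wider than the pooled SD.

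Fezf2 was at 69.7, 31.3, 2.52 and 34.3 CPM in DG Sal and at 21.0, 24.1, 17.3 and 18.2 CPM in DG METH, again with 3 saline samples above all METH samples and DG Sal 3 below them. The full groups thus overlapped, and the share of all genes with this split was not counted. In the CA it was at 25.5, 32.6, 25.9 and 63.7 CPM in Sal and at 79.3, 62.0, 28.8 and 47.4 CPM in METH. The group means of the NAc were 3.38 ± 2.37 CPM in Sal and 2.45 ± 1.18 CPM in METH. In the SVZ, Fezf2 reached 35.1 CPM in SVZ METH 1 and 14.7 CPM in SVZ Sal 2, and the other 6 samples lay at or below 4.84 CPM.

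Emx1 had means of 10.3 to 14.7 CPM in the 4 hippocampal groups and of 0.800 to 3.79 CPM in the NAc and SVZ groups. DG Sal 3 had a single read of Emx1, and DG Sal 2 had the most, 29.0 CPM. Its NAc values were split as for Neurod2, with 4.99, 7.28 and 7.01 CPM in Sal 4, METH 1 and METH 4 and at most 1.85 CPM in the other 5 samples. Emx2 was the least regional of the abundant members, with means from 5.22 ± 5.76 CPM in SVZ METH to 19.8 ± 5.03 CPM in DG METH. Its lowest samples, between 1.04 and 1.90 CPM, were the 3 SVZ samples with high thalamic markers and NAc METH 3. DG Sal 3 was the lowest DG sample for 9 of the 10 genes, all but Bhlhe23, and for Emx2 it was at 5.87 CPM.

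**Figure D1:**
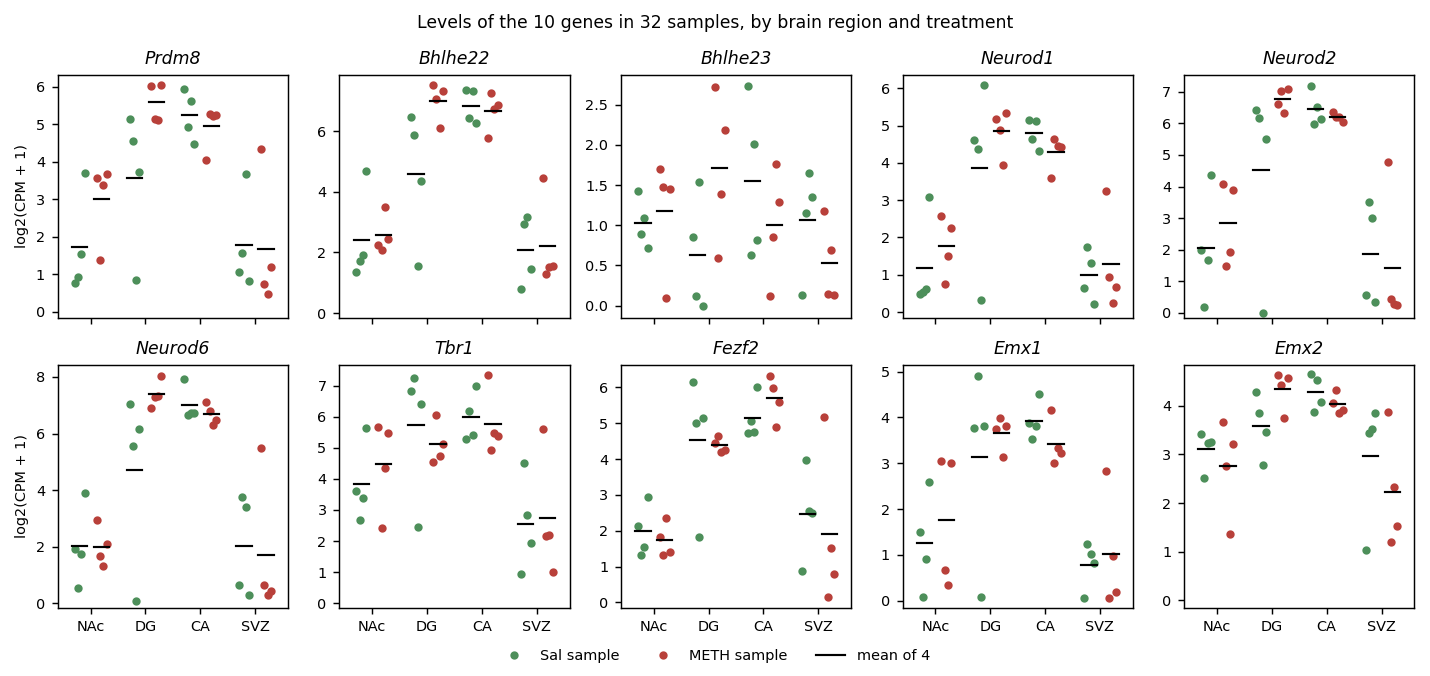
Levels of the 10 genes, as log2(CPM + 1), in each of the 32 samples by region. Points are samples (green, Sal; red, METH) and bars are means of the 4 log values of a group. For 9 genes, all but Bhlhe23, the bars of the DG and CA groups lie above those of the NAc and SVZ groups, while single samples overlap. DG Sal 3 is the lowest DG sample for the same 9 genes, and SVZ METH 1 is the highest SVZ METH sample for all 10.

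The first comparison asked how far these genes separate the hippocampus from the other regions. The genes are pallial by choice and were picked with earlier results of these data known. Higher levels in the DG and CA, under either treatment, are therefore no independent test of them. In the 16 saline samples, all 10 genes were higher in the DG and CA than in the NAc and SVZ, with a median log2 fold change of 3.18, beside -0.05 over all genes tested. Neurod6 (4.09, SE 0.95), Neurod1 (4.08, SE 0.84), Neurod2 (3.63, SE 0.95), Bhlhe22 (3.58, SE 0.76) and Emx1 (3.45, SE 0.78) had the widest differences on this scale. Fezf2 (2.91, SE 0.61), Prdm8 (2.71, SE 0.76) and Tbr1 (2.64, SE 0.71) followed, and Emx2 (0.83, SE 0.37) and Bhlhe23 (0.20, SE 0.69) were far smaller. In edgeR's quasi-likelihood test, with calls at an adjusted p under 0.01 and a change above 2-fold, 0 of 10 genes were called, beside 0.999% of all genes tested (155 of 15515). At an unadjusted p under 0.05 there were 9 of the 10, and 29.6% of all genes. The adjusted p of 8 genes lay between 0.0106 (Neurod1) and 0.0326 (Prdm8), close above the threshold, and was 0.153 for Emx2 and 0.869 for Bhlhe23. Without the libraries that stand apart (DG Sal 3 and SVZ Sal 1 in this comparison), 7 members and 893 of all genes were called. The members were Bhlhe22, Neurod1, Neurod2, Neurod6, Tbr1, Fezf2 and Emx1, while Prdm8 kept a log2 fold change of 2.76 (SE 0.68, adjusted p = 0.0102). This exclusion was not planned. DG Sal 3 was set apart in part for its low Slc17a7, which has a layout like that of Neurod1 (rho = 0.904). Leaving it out therefore widens this contrast by choice, and these calls are no separate support. DESeq2 called 8 of the 10, and 632 of all genes.

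In the 16 METH samples, which the saline comparison did not use, 4 genes were called, beside 4.67% of all genes tested (729 of 15615), and all 10 were again higher in the DG and CA. They were Neurod6 (4.41, SE 0.86, adjusted p = 0.00203), Bhlhe22 (4.30, SE 0.56, adjusted p = 0.000135), Neurod2 (3.53, SE 0.80, adjusted p = 0.00533) and Neurod1 (3.13, SE 0.59, adjusted p = 0.00165). Prdm8 had a log2 difference of 2.53 (SE 0.64) and missed the threshold by little (adjusted p = 0.0101). Fezf2 (2.74, SE 0.73), Emx1 (2.05, SE 0.71), Emx2 (1.52, SE 0.44), Tbr1 (1.28, SE 0.69) and Bhlhe23 (1.06, SE 0.67) were not called. Whether the contrast of Tbr1, 2.64 in saline and 1.28 in METH samples, differs between the treatments was not tested. The METH count depended on SVZ METH 1: without it 9 members, all but Bhlhe23, and 919 of all genes were called, and Neurod6 then stood at 6.85 (SE 0.36). SVZ METH 1 stands out by the high levels of the members themselves. Leaving it out therefore widens this contrast by choice, and these calls are no separate support. Without NAc METH 3, SVZ METH 2 and SVZ METH 4, the libraries that stand apart here, 5 members and 747 of all genes were called. Neurod2 was close to the threshold: it lost its call with the RNA integrity covariate (3.64, SE 0.89, adjusted p = 0.0128) and without any 1 of NAc METH 2 or 4, DG METH 2 or 4 and CA METH 2 or 4, where 3 members were called.

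**Figure D2:**
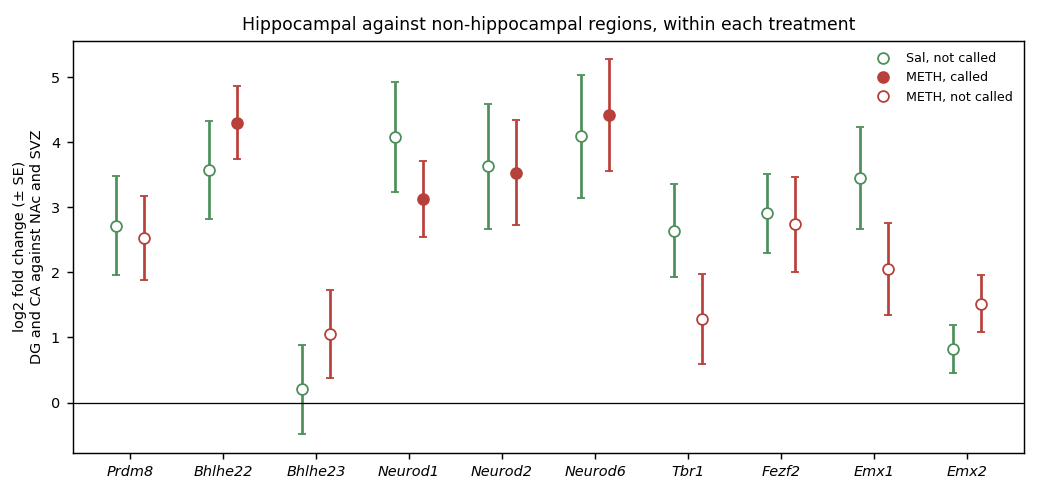
The log2 fold change of DG and CA against NAc and SVZ for each gene, in saline (green) and METH (red) samples, with its standard error. Filled points passed both thresholds. Both sets are above 0 for all 10 genes, and Bhlhe22, Neurod1, Neurod2 and Neurod6 are the 4 filled points.

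Other genes of the same system were read from lists. Of 21 related bHLH factors and their partners, 15 were tested, and Tcf4 (1.24, SE 0.20), a common partner of neuronal bHLH factors, and Neurog2 were called higher in the hippocampal saline samples. Neurog2 had 0 or 1 read in the NAc and SVZ samples and 1 to 33 reads in the DG and CA samples, so no fold is given. In the METH samples Tcf4 (1.34, SE 0.22), Neurog2 (8 to 41 reads, beside 0 to 4) and Nhlh1 (3 to 211 reads, beside 0 to 4) were called higher, and the median of this list was -0.13, beside -0.08 over all genes. Of 24 other pallial factors tested, Nfib (1.34 in saline, 1.76 in METH) and the repressor Zbtb18 (1.77 and 2.05) were called higher under both treatments, and Cux1 was called lower in METH (-1.12, SE 0.14). The subpallial factors lay on the other side, with a median of -1.78 in saline and -1.42 in METH over 17 tested. Rarb, a retinoic acid receptor of striatal neurons, was called in saline (-2.72, SE 0.49), and 9 of the 17 were called lower in METH, among them Lhx8 (-5.38, SE 0.76) and Zfp503 (-1.42, SE 0.20). Of 12 effectors of glutamatergic neurons, 1 was called higher in saline (Nptx1, a neuronal pentraxin, 2.51, SE 0.46) and 8 in METH, among them Grin2a (1.74, SE 0.24), Camk2a (1.61, SE 0.26) and Nptxr (2.44, SE 0.40). In the PRDM family together with Cdh11, a known target of Prdm8 and Bhlhe22, the medians were 0.02 and 0.21 over 12 tested, and Prdm12 was called lower in METH (-4.58, SE 0.92).

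The 2 hippocampal regions were compared in the saline samples. In DG against CA, 0 of 10 members and 0% of all genes (0 of 14630) were called, and 0 of 10 members had an unadjusted p under 0.05. Over all genes, 627 were higher and 583 lower in the DG at that level, and DESeq2 called 0. The largest differences were in Bhlhe23 (-1.77, SE 1.06), Bhlhe22 (-1.55, SE 0.84) and Prdm8 (-1.20, SE 0.79), all lower in the DG, followed by Neurod6 (-1.15, SE 1.06), Neurod2 (-0.88, SE 1.02) and Emx2 (-0.67, SE 0.33). Tbr1 (0.34, SE 0.80), Neurod1 (0.017, SE 0.95), Fezf2 (-0.09, SE 0.73) and Emx1 (-0.11, SE 0.90) were nearer to 0. Without DG Sal 3, Prdm8 stood at -0.80 (SE 0.44) and Bhlhe22 at -1.15 (SE 0.50). In saline NAc against SVZ, 0 of the 9 members tested and 0% of all genes (0 of 15112) were called, with 0 members at an unadjusted p under 0.05 (507 genes higher and 1164 lower). DESeq2 called 46 genes and 0 members. Emx1 (1.26, SE 1.03), Tbr1 (1.24, SE 0.99), Bhlhe22 (0.87, SE 1.03) and Neurod2 (0.44, SE 1.33) were higher in the NAc. Fezf2 (-0.90, SE 0.78), Neurod6 (-0.24, SE 1.24), Bhlhe23 (-0.23, SE 0.69) and Emx2 (-0.17, SE 0.61) were lower, and Prdm8 was at 0.016 (SE 1.12). Neurod1 had enough reads for the filter in too few samples to be tested there.

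The second comparison was METH against saline in each region, with calls at an adjusted p under 0.01 and a change above 1.5-fold. In the DG, 0 of 10 members and 0% of all genes (0 of 14800) were called. Run and treatment were largely confounded there, as given above. The members had a median log2 fold change of 0.97, beside -0.01 over all genes, and 7 of the 10 were higher in METH. Bhlhe23 (1.94, SE 1.03), Bhlhe22 (1.74, SE 0.84), Prdm8 (1.53, SE 0.77), Neurod6 (1.52, SE 1.07) and Neurod2 (1.17, SE 1.03) had positive values. Emx2 (0.76, SE 0.33) was the one member with an unadjusted p under 0.05 (adjusted p = 0.387), beside 940 genes higher and 950 lower at that level. Tbr1 (-1.24, SE 0.80) and Fezf2 (-0.75, SE 0.70) had negative values, and Emx1 (-0.15, SE 0.91) and Neurod1 (0.09, SE 0.97) were near 0. The groups did not overlap in 3.15% of all genes with METH above and 3.66% with METH below, and in 0 of the 10 members.

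These values rested in part on DG Sal 3. Without it, the standard errors of 9 genes were smaller, and Prdm8 was at 1.13 (SE 0.38), Bhlhe22 at 1.34 (SE 0.50), Neurod6 at 1.10 (SE 0.40) and Neurod2 at 0.75 (SE 0.25). Tbr1 was at -1.63 (SE 0.38), Fezf2 at -1.14 (SE 0.28), Emx1 at -0.57 (SE 0.33) and Neurod1 at -0.32 (SE 0.50). Emx2 was at 0.54 (SE 0.26). Bhlhe23 moved to 3.20 with a larger error (SE 1.13). Still 0 members and 0 genes were called (adjusted p = 0.176 for Tbr1 and 0.262 for Prdm8). With 4 factors of unwanted variation estimated from the residuals (RUVr), Prdm8 (2.31, SE 0.15) and Bhlhe22 (2.58, SE 0.16) were called, both at an adjusted p of 0.00946, among 125 genes called in all. The residuals are those of the same samples, so such factors lower the spread within groups by construction. The SEs without them were 0.77 for Prdm8 and 0.84 for Bhlhe22, and these 2 calls are not separate evidence. With 2 such factors, 0 members and 0 genes were called. DESeq2 called 193 genes in the DG and 0 members. Markers of other neurons differed beside these values. The dentate granule markers had a summed median of 403 CPM in DG Sal (342 to 599.9) and 703 CPM in DG METH (352 to 965), and 0 of the 7 tested were called. The cortical glutamatergic markers had 509 CPM (274 to 879) in DG Sal and 276 CPM (235 to 300.0) in DG METH, and all 7 tested were lower in METH with 0 called. All 8 striatal markers were lower in DG METH (median -2.30), with sums of 222 to 1669 CPM in DG Sal and 160.5 to 368 CPM in DG METH, and all 6 interneuron markers tested were lower (median -0.58). Both medians include DG Sal 3, which held the 1669 CPM, beside 222 to 320 CPM in the other DG Sal samples. Its interneuron sum was 1809 CPM, beside 405 to 847 CPM in the other DG Sal samples. All 5 choroid plexus markers were higher (median 1.43), with sums of 6060.5 CPM in DG METH 3 and 2029 CPM in DG Sal 4 and 1.69 to 189 CPM in the other 6. None of these markers was called. The part of these cell types in the values of the 10 genes was not tested.

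In the CA, 9 of the 10 members were lower in METH, with a median of -0.33, beside 0.01 over all genes, and 0 members and 0% of all genes (0 of 14612) were called. Bhlhe23 (-1.06, SE 0.84), Neurod1 (-0.53, SE 0.26), Emx1 (-0.51, SE 0.30) and Neurod6 (-0.41, SE 0.30) had the lowest values. Neurod2 (-0.34, SE 0.24), Prdm8 (-0.33, SE 0.37), Emx2 (-0.30, SE 0.19), Bhlhe22 (-0.19, SE 0.35) and Tbr1 (-0.017, SE 0.58) were closer to 0. Fezf2 (0.56, SE 0.36) was the one member higher in METH. No member had an unadjusted p under 0.05, while 639 genes were higher and 407 lower at that level, and DESeq2 called 13 genes and 0 members. Non-overlapping groups were found in 2.57% of all genes above and 1.88% below, and in 0 members. Of the dentate granule markers, 6 of 7 were lower in CA METH, with a median of -0.90, and their sum was 592 CPM (395 to 1008) in CA Sal and 512 CPM (320 to 628) in CA METH.

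In the NAc, 6 of 10 members were higher in METH, with a median of 0.39, beside 0.03 over all genes, and 0 members and 0% of all genes (0 of 14771) were called. Run and treatment were partly confounded there, as given above, and several members, among them Prdm8, changed sign with the run covariate. Prdm8 (1.11, SE 0.92), Emx1 (0.97, SE 1.13), Tbr1 (0.65, SE 0.83), Neurod2 (0.47, SE 1.11), Bhlhe23 (0.44, SE 0.68) and Neurod1 (0.35, SE 1.00) were positive. Neurod6 (-0.51, SE 0.88), Bhlhe22 (-0.50, SE 0.89), Fezf2 (-0.44, SE 0.52) and Emx2 (-0.18, SE 0.50) were negative. The share of genes with non-overlapping groups was 1.24% above and 1.06% below, and 0 for the members. Single samples decided several of these values, and NAc Sal 4 and NAc METH 1, both high for several members, moved them in opposite directions. Without NAc METH 1, Neurod1 was at -0.053, Neurod2 at -0.0097, Neurod6 at -1.05, Tbr1 at 0.27 and Emx1 at 0.45, with 0 calls. Without NAc Sal 4, Prdm8 was at 2.88 (SE 0.71), Neurod1 at 2.63, Neurod2 at 2.34, Emx1 at 2.07, Tbr1 at 1.78, Bhlhe22 at 1.34, Neurod6 at 0.91 and Fezf2 at 0.15, with 0 calls, so that Bhlhe22, Neurod6 and Fezf2 turned from negative to positive. These samples stand out by the levels of the members themselves, so neither set of values is separate evidence. No member had an unadjusted p under 0.05, beside 357 genes higher and 143 lower, and DESeq2 called 3 genes and 0 members.

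In the SVZ, 9 members were tested, since Neurod2 had enough reads for the filter in too few samples. Of these, 7 were higher in METH with a median of 0.62, beside 0.02 over all genes. None of the 9 members and 0% of all genes (0 of 15579) were called. The values were 1.198 (SE 1.30) for Emx1, 1.16 (SE 1.18) for Neurod1, 1.00 (SE 1.78) for Neurod6, 0.83 (SE 1.30) for Tbr1, 0.62 (SE 1.06) for Bhlhe22, 0.60 (SE 1.46) for Fezf2 and 0.49 (SE 1.35) for Prdm8. Emx2 (-0.73, SE 0.89) and Bhlhe23 (-1.25, SE 0.97) were lower. The direction of the 7 higher genes came from SVZ METH 1, and without it all 7 were lower in METH, from -0.98 (Emx1) to -3.87 (Neurod6). SVZ METH 1 also had 470 CPM of Slc17a7, beside 24.9 to 209 CPM in the other SVZ METH samples. Non-overlapping groups were found in 0.7% of all genes with METH above and 0.995% with METH below, and in 0 members. At an unadjusted p under 0.05 there were 0 members, 185 genes higher and 217 lower, and DESeq2 called 2 genes and 0 members.

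**Figure D3:**
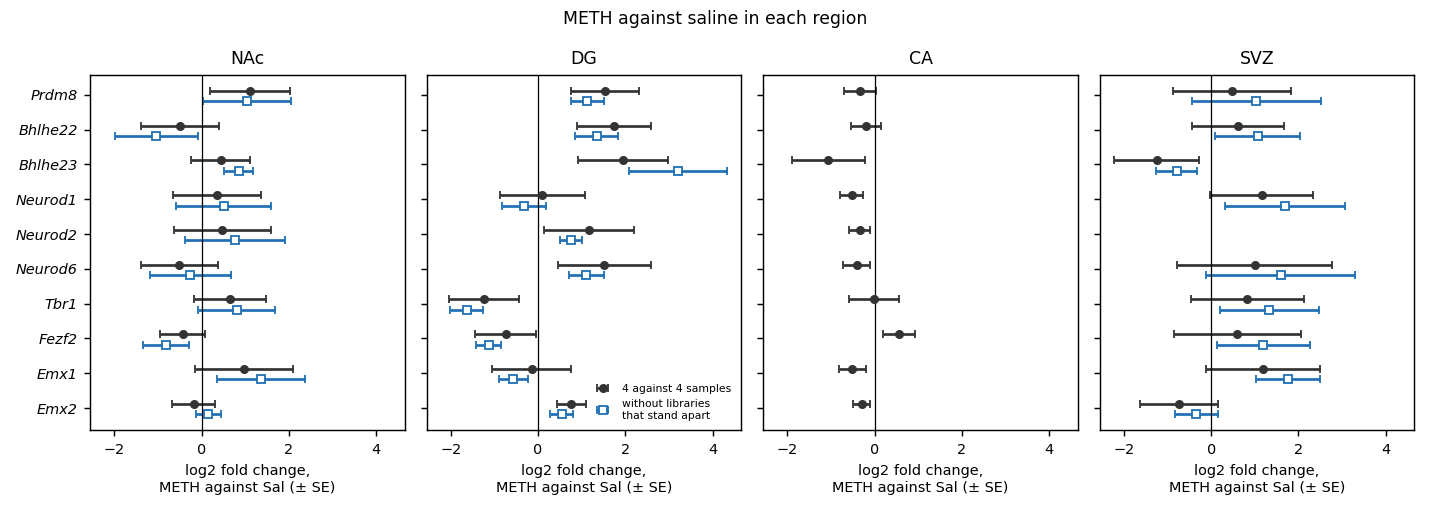
The log2 fold change of METH against saline for each gene, with its standard error, in the 4 regions. Black points use 4 against 4 samples, and open blue squares leave out DG Sal 3, NAc METH 3 or the 3 SVZ libraries with thalamic markers (none is left out in the CA, and Neurod2 was not tested in the SVZ). In the DG, Prdm8 and Bhlhe22 lie to the right of 0 and Tbr1 and Fezf2 to the left, and none of the black points was called.

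The difference between the METH effects in the DG and the CA was fitted as an interaction term over the 16 hippocampal samples. Again 0 of 10 members and 0% of all genes (0 of 15308) were called, and 8 of the 10 differences were positive with a median of 1.27, beside -0.03 over all genes. The widest were Bhlhe23 (2.99, SE 1.44), Neurod6 (1.92, SE 1.14), Bhlhe22 (1.92, SE 0.96), Prdm8 (1.85, SE 0.90) and Neurod2 (1.498, SE 1.08). Fezf2 (-1.32, SE 0.84) and Tbr1 (-1.23, SE 1.06) were negative, and Emx2 (1.05, SE 0.40) was the one with an unadjusted p under 0.05 (adjusted p = 0.244). Neurod1 (0.61, SE 1.06) and Emx1 (0.35, SE 1.01) were small beside their errors. At that level 1111 genes were positive and 1242 negative, and DESeq2 called 85 genes and 0 members. The subpallial factors had a median of -1.52 over 14 tested, and the dentate granule markers 1.90 over 7, with 0 called in both lists. These medians include DG Sal 3, whose subpallial sum was 696 CPM, beside 148 to 264 CPM in the other DG Sal samples.

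Among the 16 hippocampal samples, Prdm8 and Bhlhe22 were low and high in much the same samples. DG Sal 3 had 0.82 CPM of Prdm8 with 1.96 CPM of Bhlhe22, DG Sal 4 had 12.3 with 19.7 CPM and DG METH 1 had 64.2 with 185 CPM. CA METH 1, with the most Tbr1 (164 CPM), had 53.8 CPM of Bhlhe22 and 57.9 CPM of Prox1. DG Sal 2, the next in Tbr1 (151 CPM), had 58.1 and 27.1 CPM of the same genes. DG METH 1, with the most Bhlhe22, had 22.3 CPM of Tbr1 and 315 CPM of Prox1. CA Sal 1, the next in Bhlhe22 (164 CPM), had 38.5 and 256 CPM of them. These 4 samples come from both regions and both treatments. The share of cortical, CA or granule cells in each piece of tissue was not tested.

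**Figure D4:**
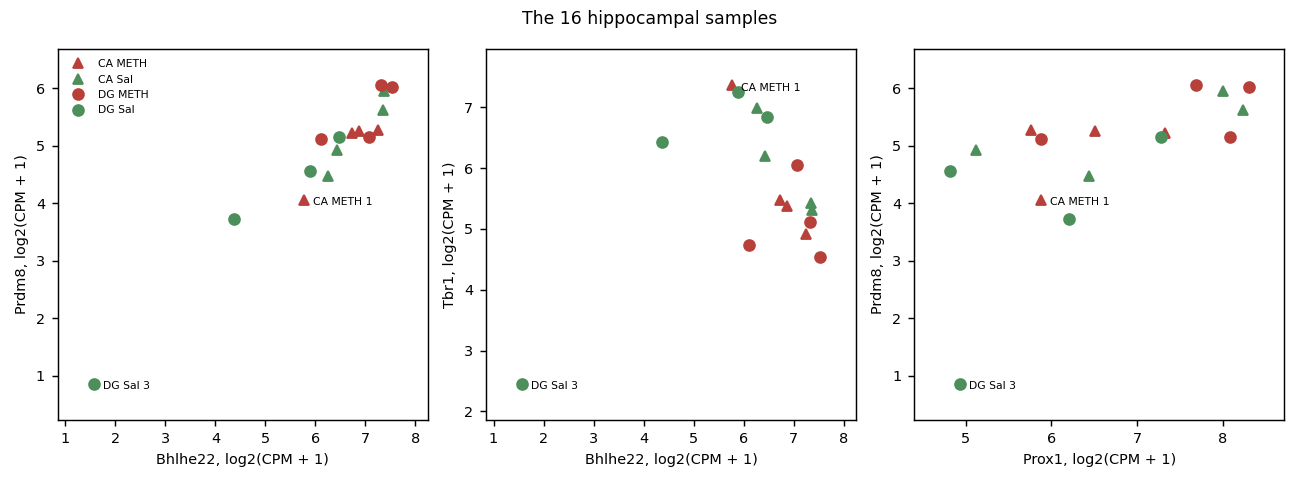
The 16 DG (circles) and CA (triangles) samples, Sal in green and METH in red, as log2(CPM + 1). The panels plot Prdm8 against Bhlhe22, Tbr1 against Bhlhe22 and Prdm8 against Prox1. DG Sal 3 lies at the lower left of each panel, samples with more Bhlhe22 have more Prdm8, and CA METH 1 has the most Tbr1 with low Prdm8.

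Likeness over all 32 samples was ranked by Spearman's correlation of log2(CPM + 1) among 14450 genes with a mean of at least 1 CPM. The samples share region and makeup, so these values describe the layout over regions and carry no test. For Prdm8, the closest genes other than members were Slc9a4 (rho = 0.948), Mas1, a receptor for angiotensin 1-7 (0.945), and Slc9a2 (0.94). For Bhlhe22 they were the netrin receptor gene Unc5a (0.954), Coro1a (0.949) and again Mas1 (0.948). Between the members, Prdm8 and Bhlhe22 (0.976) and Neurod2 and Neurod6 (0.974) were the most alike pairs. Neurod2 was closest to Zbtb18 (0.963), Neurod6 to Plekhg5 (0.933) and Neurod1 to Frzb (0.907), Lrrc8d (0.905) and Slc17a7 (0.904). Plekhg5 (0.949) and the cell adhesion gene Nrcam (0.946) came next for Neurod2, and Nmt1 (0.927) and RGD1306556 (0.925) for Neurod6. Tbr1 was closest to Ttc9b (0.947), Ext1 (0.925) and the syntaxin gene Stx1a (0.924), and Fezf2 to Nol4 (0.935), Nov (0.934) and Psrc1 (0.93). Emx1 followed Vps37b (0.935), Lyzl4 (0.933) and LOC100361087 (0.929), and Emx2 followed Wasf1 (0.949), Nfib (0.937) and Arpc3 (0.935). Bhlhe23 stood apart, with lower values for its closest genes, Vrk1 (0.827), Ggh (0.813) and Abl2 (0.808), and with -0.125 to Tbr1.

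The lists gave few separate genes in the METH comparisons. Of 24 other pallial factors tested in the DG, 0 were called, and the smallest p belonged to Zbtb20, a factor of hippocampal neurons (1.01, SE 0.21, adjusted p = 0.164), and Lhx9 (2.14, SE 0.54, adjusted p = 0.200), both with non-overlapping groups. Of the 12 effectors in the DG, 11 were higher with a median of 0.71 and 0 called, led by Nptx1 (1.26, SE 0.49) and Camk2a (0.85, SE 0.38). In the CA, 10 of the 12 effectors were lower, led by Nptx1 (-0.75, SE 0.24) and Chn1 (-0.40, SE 0.15), with 0 called. Of 15 related bHLH factors tested in the DG, 0 were called, and Bhlha15 (-1.09, SE 0.36) and Neurod4, whose difference came from DG Sal 4, had the smallest p. The Id inhibitors of bHLH factors led this list in the CA, with Id4 at 0.60 (SE 0.11) and Id1 at 0.59 (SE 0.20), both not called. The PRDM list had 0 calls in all 4 regions, with medians between -0.15 and 0.04, and Prdm4 (-0.30, SE 0.09) in the DG and Mecom (0.52, SE 0.16) in the CA were its leading genes.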

How the data were processed

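RNA-seq of rRNA-depleted total RNA was measured in 32 samples. The authors trimmed reads with cutadapt 2.7, checked them with FastQC 0.11.4, aligned them to rn6 with STAR 2.5.2b and counted them per gene with featureCounts 1.6.3 (unstranded, pairs, mapping quality of at least 10), against Ensembl release 95 per the file headers. The deposited values are raw counts per gene, without normalization. Antisense and overlapping genes can share reads. Genes were kept with filterByExpr and tested on the counts with edgeR 4.0.16 (R 4.3.3, quasi-likelihood, upper-quartile scaling, Benjamini-Hochberg adjustment), with SE taken as the log2 fold change over the square root of F. Folds are log2. DESeq2 1.42.0, other scalings, filters, covariates, RUVr factors, a replicate block and leaving out samples were alternatives. Groups came from the labels. The named genes were all 10 members in each comparison, the called genes of each list (at most 4 by F, otherwise at most 2 by p) and the 3 genes most like each member. The members and lists were chosen with earlier results of these data known. The model was tested on simulated data, and 200 of 200 changed genes were recovered in 8 comparisons and 198 in the interaction. Only genes with high counts were changed there, by a log2 fold of 2, at a dispersion of 0.05 and without libraries that stand apart. It therefore does not give the power for the 10 genes in the real samples. Replicate numbers were not taken to pair the samples, since the deviations of same-numbered samples were not above 0.1 in correlation in every pair of any comparison. Differently numbered samples were not compared in this way, so the rule cannot tell whether same-numbered samples share an animal. No 2 replicates agreed within sampling noise. Levels near 3 reads or fewer are not told from 0, for counting error only.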

Additional observations from a re-analysis of the deposited data

Results flagged for a closer look

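In 18 of the 80 groups of 4 samples (10 genes by 8 groups), 1 sample lay far from the other 3. Chance flags about 1 in 20 groups, and the 10 genes share libraries, so these are not separate events. SVZ METH 1 was the high sample for 8 genes: Prdm8 19.2, Bhlhe22 20.8, Neurod1 8.51, Neurod2 26.2, Neurod6 44.5, Tbr1 48.0, Fezf2 35.1 and Emx1 6.16 CPM. NAc Sal 4 was the high sample for 5 genes: Prdm8 12.1, Bhlhe22 24.6, Neurod1 7.45, Neurod2 19.4 and Tbr1 49.3 CPM. CA METH 1 was low for Prdm8, at 15.6 CPM, and high for Tbr1, at 164 CPM. Bhlhe22 was high in NAc METH 3 at 10.4 CPM, Prdm8 in SVZ Sal 3 at 11.8 CPM and Neurod6 in CA Sal 1 at 241 CPM.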

How the results depend on the processing

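Of 1949 alternative values of the genes, 1738 kept their direction and side of the threshold, 114 reversed, 90 passed the threshold newly and 7 no longer did, and all 160 group levels moved by less than 1 SD with other library sizes. The cause of the changes was not tested. The run covariate could not be fitted in 4 comparisons (SVZ METH, both region contrasts and NAc against SVZ). Neurod2 in the SVZ and Neurod1 in NAc against SVZ had enough reads for the filter in too few samples to be tested.

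Genes called by METH with DESeq2 numbered 3 in the NAc, 193 in the DG, 13 in the CA and 2 in the SVZ, and with 4 RUVr factors 125 in the DG (2 members) and 101 in the CA, and 1 in the DG at an FDR of 0.05 with no fold threshold. In saline regions the counts were 632 genes and 8 members with DESeq2, 553 and 7 with 2 RUVr factors, 741 and 9 with 4, 528 and 6 with all 32 samples, 0 and 0 with the RNA integrity covariate, 1879 and 8 at an FDR of 0.05, and 893 and 7 without the libraries that stand apart (chosen after seeing the data). In METH regions the members called were 7 with DESeq2 (972 genes), 8 with 2 RUVr factors (996 genes), 9 with 4 (1105 genes), 8 at 0.05 (4458 genes) and 3 with the RNA integrity covariate (527 genes), where Neurod2 lost its call. DG against CA had 30 genes with 4 RUVr factors. NAc against SVZ had 46 with DESeq2, 191 with 4 RUVr factors and 6 with all samples. The interaction had 85, 549 (4 members) and 2. The RUVr factors come from the residuals of the same samples, which lowers the spread within groups by construction.

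The replicate numbers of METH and Sal samples did not deviate together in every pair (correlations -0.779 to 0.417, above 0.1 in 7 of 16 pairs; between regions -0.425 to 0.384, 14 of 48, with NAc Sal and CA Sal above 0.1 in all 4 pairs). With the replicate block, 38 genes and 0 members were called in saline regions and 7 members in METH regions, and these values reversed: NAc Bhlhe22 0.33 and Neurod6 0.083, DG Emx1 0.50, SVZ Prdm8 -0.38, Bhlhe22 -0.30, Neurod6 -1.71, Tbr1 -0.52, Fezf2 -1.78 and Emx1 -0.55, saline regions Bhlhe23 -0.29, DG against CA Neurod1 -0.72 and Tbr1 -0.11, and NAc against SVZ Prdm8 -0.37, Emx2 0.084 and Neurod6 0.039.

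Other reversals with 2 RUVr factors were NAc Bhlhe22 0.31, DG Emx1 1.22, SVZ Prdm8 -0.64, Neurod1 -0.038, Neurod6 -1.41, Tbr1 -0.090 and Fezf2 -0.86, DG against CA Neurod1 -1.10 and Tbr1 -0.33, and NAc against SVZ Prdm8 -0.19, Bhlhe23 0.20 and Emx2 0.27. With 4 they were NAc Bhlhe22 0.29, DG Emx1 1.30, SVZ Prdm8 -0.14 and Fezf2 -0.53, saline regions Bhlhe23 -0.39, DG against CA Neurod1 -1.29 and Tbr1 -0.29, and NAc against SVZ Prdm8 -0.17, Bhlhe23 0.27, Emx2 0.26 and Neurod6 0.44. With the RNA integrity covariate they were NAc Bhlhe22 0.54 and Bhlhe23 -0.73, DG Neurod1 -0.028, CA Tbr1 0.019, DG against CA Tbr1 -0.075 and NAc against SVZ Neurod6 1.32. With the run covariate they were NAc Prdm8 -0.19, Neurod1 -0.53, Neurod2 -0.30, Tbr1 -0.13 and Emx2 0.062, DG Emx1 7.55, Tbr1 3.27 and Fezf2 3.13, DG against CA Prdm8 0.14 and Tbr1 -0.11, and interaction Tbr1 1.09 and Fezf2 0.68. The DG values of METH against Sal in that fit rest on the run that held both treatments. It had 1 DG Sal and 2 DG METH samples, so these values depend on a single saline sample. Without a filter DG against CA Neurod1 was -0.017. Without the libraries that stand apart they were NAc Emx2 0.15, DG Neurod1 -0.32, saline regions Bhlhe23 -0.62, DG against CA Fezf2 0.30 and Emx1 0.30, NAc against SVZ Prdm8 -0.30 and interaction Emx1 -0.068.

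Leaving out 1 sample at a time gave 0 to 594 genes and 0 to 7 members in saline regions (594 without DG Sal 3, 446 without SVZ Sal 1, 217 without NAc Sal 4) and 3 to 9 members in METH regions. Prdm8 in the NAc ran from 0.76 to 2.88. Ranges that crossed 0 were, in the NAc, Neurod1 -0.053 to 2.63, Bhlhe22 -1.04 to 1.34, Neurod6 -1.05 to 0.91, Fezf2 -0.82 to 0.15, Neurod2 -0.0097 to 2.34 and Emx2 -0.57 to 0.15. In the DG they were Neurod1 -0.32 to 1.08 and Emx1 -0.57 to 0.50, and in the CA Neurod6 -0.57 to 0.0042, Tbr1 -0.87 to 0.43 and Bhlhe22 -0.40 to 0.034. In the SVZ they were Prdm8 -2.28 to 2.07, Bhlhe22 -1.27 to 1.09, Neurod1 -1.01 to 1.78, Neurod6 -3.87 to 1.74, Tbr1 -1.56 to 2.11, Fezf2 -2.75 to 1.46 and Emx1 -0.98 to 1.6, each lowest without SVZ METH 1. In saline regions Bhlhe23 ran from -0.43 to 0.40. In DG against CA they were Tbr1 -0.024 to 0.79, Fezf2 -0.68 to 0.30, Emx1 -0.76 to 0.30 and Neurod1 -0.97 to 0.43. In NAc against SVZ they were Neurod6 -1.67 to 0.50, Emx2 -0.55 to 0.13, Prdm8 -1.75 to 1.61, Bhlhe22 -0.97 to 1.35, Neurod2 -1.43 to 1.26 and Bhlhe23 -0.62 to 0.14. In the interaction Emx1 ran from -0.068 to 1.01.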
